A study of Mus musculus with 6 samples.

Results

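Marcks, its relative Marcksl1 and 8 genes whose proteins link the plasma membrane to the cytoskeleton or organise the filaments beneath it were followed in naive CD8 T cells sorted by the brightness of a Nur77-GFP reporter. The genes were taken by symbol from a list of 10 names, and all 10 were found among the 11162 genes with values. The list had been drawn up with the difference between the sorted populations already known, since Marcks and Lad1 are among the genes that differed most, so the comparison of these 10 genes is given as a description without a test. The data were 3 RNA sequencing libraries of GFP-hi cells and 3 of GFP-lo cells. All 6 samples were mouse spleen CD8 T cells carrying the transgene Tg(Nr4a1-EGFP)GY139Gsat, in which Nr4a1 regulatory sequence drives green fluorescent protein, and all were sorted as OT-I cells that were CD8+, CD44lo, CD62Lhi and Qa2hi. OT-I is a transgenic T-cell receptor of a single specificity. The populations therefore differed in the labels only by the gate, Nur77-GFPhi or Nur77-GFPlo. Age and the number of mice were not given in the labels, and nothing there says that libraries came from separate mice, so the spread between libraries may be technical.

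The cortex of a T cell is a mesh of actin under the plasma membrane, and several protein families fasten the one to the other. MARCKS and its relative MARCKSL1 are myristoylated proteins whose basic effector domain binds acidic phospholipids, actin and calmodulin, and which leave the membrane when protein kinase C phosphorylates them or calmodulin binds. Ezrin, radixin and moesin, the ERM proteins, bind membrane receptors at one end and actin at the other, and are opened by phospholipid and phosphorylation. Filamin A crosslinks actin and binds integrin tails, talin-1 switches integrins on and couples them to actin, coronin-1A regulates actin turnover and is needed for T-cell survival, and vimentin forms the intermediate filaments of lymphocytes. Ladinin-1 was described as a basement membrane protein of skin and is also an actin-associated protein of epithelial cells.

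Levels are in RPKM, reads per kilobase of gene scaled to library size, so that levels of different genes can be set side by side. The depth, recovered from the spacing of low values, was 26170000 to 35940000 reads per library. Hspa1a, a heat-shock gene, had 1100 RPKM in GFP-hi replicate 2 and 1234 RPKM in GFP-lo replicate 2, against 152 to 235 RPKM in the other 4 libraries. These libraries stood apart, and differences are therefore also given for the 4 others. Of 8 CD8 T cell markers 7 had values, and their summed level was 1770 to 1882 RPKM in GFP-hi against 1748 to 1799 RPKM in GFP-lo libraries. Of 6 proliferation genes 5 were tested and all 5 were higher in GFP-hi (limma, adjusted p of 0.0047 or less). Mki67, Top2a, Ccnb2 and Birc5 reached the mean of 1 RPKM required for the test only through their GFP-hi libraries. Their calls are therefore no independent support. The summed level over all 6 proliferation genes was 15.2 to 20.1 RPKM in GFP-hi against 3.36 to 4.37 RPKM in GFP-lo.

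The 10 genes ranged from some of the most abundant transcripts of these cells to some of the rarest that were tested. Coro1a, Msn and Ezr led, with means of 342, 288 and 188.5 RPKM in GFP-hi against 324, 279.5 and 192 RPKM in GFP-lo. Coro1a ranked between positions 23 and 32 among the 9351 tested genes in every library. Flna, Tln1, Vim, Rdx and Marcksl1 followed in that order in both populations. Flna was above Tln1 in all 3 GFP-hi libraries, although their ranges overlapped there, and every other neighbouring pair down to Marcksl1 had separate ranges in both populations. Marcks and Lad1 were the lowest of the set. In GFP-hi their ranges overlapped, with means of 2.88 and 3.11 RPKM, whereas in GFP-lo Marcks (0.473 RPKM) lay above Lad1 (0.28 RPKM) in each library. This order holds for the deposited values and depends on the gene length used for Lad1, which was not given.

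**Figure D1:**
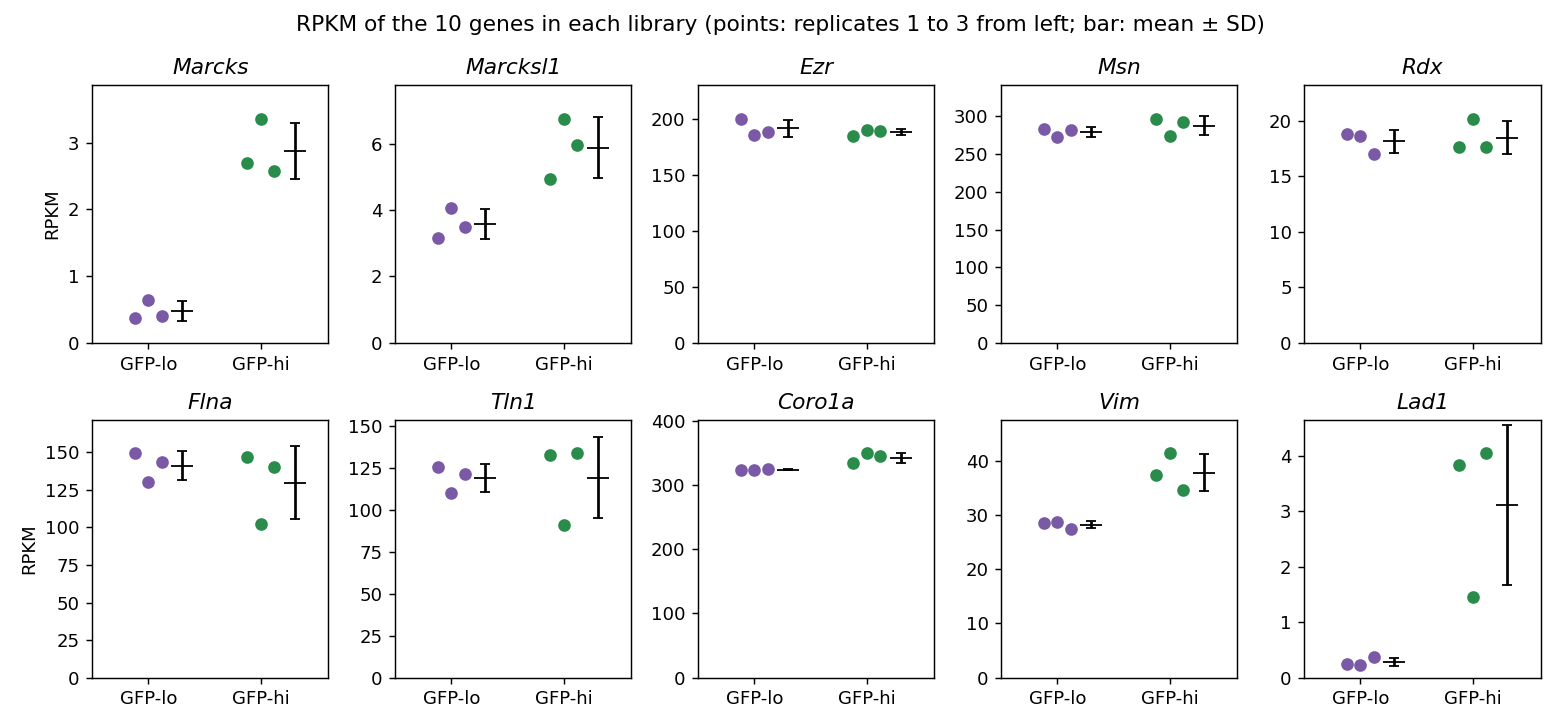
RPKM of each of the 10 genes (vertical axes from 0, a scale of its own for each gene) in the 3 GFP-lo and 3 GFP-hi libraries. Points are libraries and bars are means with SD. Marcks, Marcksl1, Coro1a, Vim and Lad1 have separate ranges, while Ezr, Msn, Rdx, Flna and Tln1 overlap.

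Marcks (Entrez 17118) lies on chromosome 10, from 37133243 to 37138926 (GRCm38.p6). It had 2.70, 3.36 and 2.58 RPKM in GFP-hi replicates 1 to 3 and 0.371, 0.643 and 0.406 RPKM in the GFP-lo libraries. Every GFP-hi library was thus at least 4.005 times as high as every GFP-lo library. At the length of its GENCODE transcript, 4048 bases, these values came from 311, 462 and 307 reads in GFP-hi and from 54, 74 and 43 reads in GFP-lo. Mean levels were 2.88 ± 0.422 and 0.473 ± 0.148 RPKM (SD, n = 3 each), a ratio of 6.08. On the log2(RPKM + 1) scale, which compresses differences of rarer transcripts, the difference was 1.40 with a standard error of 0.11, and it was 1.39 in the 4 libraries with low Hspa1a. Marcks had a mean of at least 1 RPKM, the level required for the fit across genes, only because of its GFP-hi libraries, and the same holds for Lad1. In sorted bulk cells a higher level in all cells and a larger share of cells with a high level cannot be told apart.

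Marcksl1 (Entrez 17357, chromosome 4, 129513581 to 129515981) was the more abundant of the pair in every library. Its RPKM was 4.95, 6.75 and 5.94 in GFP-hi and 3.17, 4.06 and 3.50 in GFP-lo, so the ranges were separate but closer than those of Marcks. Means were 5.88 ± 0.904 and 3.58 ± 0.447 RPKM (SD, n = 3 each), a ratio of 1.64, and the log2 difference was 0.58 with a standard error of 0.11. It was 0.57 in the 4 libraries with low Hspa1a. The GFP-hi libraries rested on 226, 368 and 281 reads and the GFP-lo libraries on 183, 185 and 147 reads. As a share of the summed RPKM of both genes, Marcks made up 35.3%, 33.2% and 30.2% in GFP-hi and 10.5%, 13.7% and 10.4% in GFP-lo. The balance within the pair thus differed between the populations by 21.4 percentage points, with SDs of 2.55 and 1.88 points.

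The coding sequences of the pair were compared to see whether reads could be exchanged between them, and the longest run of identical bases they share is shown for that reason. It lies at bases 100 to 116 of the Marcks coding sequence and 85 to 101 of that of Marcksl1, and is 17 bases long.
Marcks and Marcksl1: caggagaatggccacgt
Over 600 aligned coding bases 67.0% were identical, and the coding sequence of Marcks had a GC content of 75.6% against 62.8% in Marcksl1. Marcksl1 itself has near copies elsewhere in the annotation (over 1061 bases of Akr1c19 at 91.2% identity, 495 bases of Gm9089 at 90.7% and 306 bases of Marcksl1-ps4 at 90.2%), so its level is less certain. None of the other 9 genes had another annotated gene with at least 90% identity over 100 bases.

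Lad1 (Entrez 16763, chromosome 1, 135818598 to 135833341) had the largest ratio of the 10. It had 3.83, 1.46 and 4.04 RPKM in GFP-hi against 0.24, 0.232 and 0.368 RPKM in GFP-lo. GFP-hi replicate 2 stood well below the other GFP-hi libraries and still 3.95 times as high as the highest GFP-lo library. Means were 3.11 ± 1.44 and 0.28 ± 0.0763 RPKM (SD, n = 3 each), a ratio of 11.1. The log2 difference was 1.61 with a standard error of 0.25, and it was 1.92 in the 4 libraries with low Hspa1a. The values of Lad1 came closest to whole reads at a length of 3947 bases, longer than its GENCODE transcript of 2993 bases. At 3947 bases they correspond to 430, 195 and 470 reads in GFP-hi and to 34, 26 and 38 reads in GFP-lo. Of 7 epithelial markers only Epcam had values, at 0.496 to 1.00 RPKM in GFP-hi against 0.37 to 0.613 RPKM in GFP-lo.

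Vim (Entrez 22352, chromosome 2, 13574311 to 13582826) was higher in GFP-hi by a smaller ratio at a higher level. It had 37.5, 41.4 and 34.7 RPKM in GFP-hi against 28.4, 28.7 and 27.4 RPKM in GFP-lo. The GFP-lo libraries lay close together and all below the lowest GFP-hi library. Means were 37.8 ± 3.38 and 28.2 ± 0.657 RPKM (SD, n = 3 each), a ratio of 1.34, with a log2 difference of 0.41 and a standard error of 0.070. In the 4 libraries with low Hspa1a the difference was 0.36.

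The ERM genes gave a contrast to these. Msn (chromosome X, 96096045 to 96168553), the gene of moesin, had 297, 275 and 292 RPKM in GFP-hi against 284, 272 and 283 RPKM in GFP-lo. Ezr (chromosome 17, 6738131 to 6782780), the gene of ezrin, had 185, 190 and 190 RPKM in GFP-hi against 201, 186 and 189 RPKM in GFP-lo. Rdx (chromosome 9, 52047150 to 52088738), the gene of radixin, had 17.6, 20.2 and 17.7 RPKM against 18.9, 18.7 and 17.0 RPKM. In all 3 genes the populations overlapped. The log2 differences were 0.04 (standard error 0.056) for Msn, -0.03 (0.053) for Ezr and 0.02 (0.072) for Rdx. Those of Ezr and Rdx changed sign among alternative analyses, with ranges of -0.05 to 0.0074 and -0.04 to 0.05, while that of Msn ranged from 0.016 to 0.087.

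Moesin transcripts made up most of the ERM sum in every library. Msn held 56.6% to 59.4% of the summed RPKM of the 3 genes in GFP-hi and 56.4% to 57.9% in GFP-lo. Ezr held 37.0% to 39.2% and 38.6% to 39.9%, and Rdx 3.53% to 4.17% and 3.48% to 3.92%. The summed level was 495 ± 8.59 RPKM in GFP-hi against 490 ± 13.0 RPKM in GFP-lo (SD, n = 3 each). The differences between populations were 1.07 percentage points for Msn, -1.10 for Ezr and 0.028 for Rdx, and the populations overlapped in each share. Without 1 library they ranged from 0.435 to 1.86 for Msn, from -1.68 to -0.571 for Ezr and from -0.184 to 0.136 for Rdx.

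**Figure D2:**
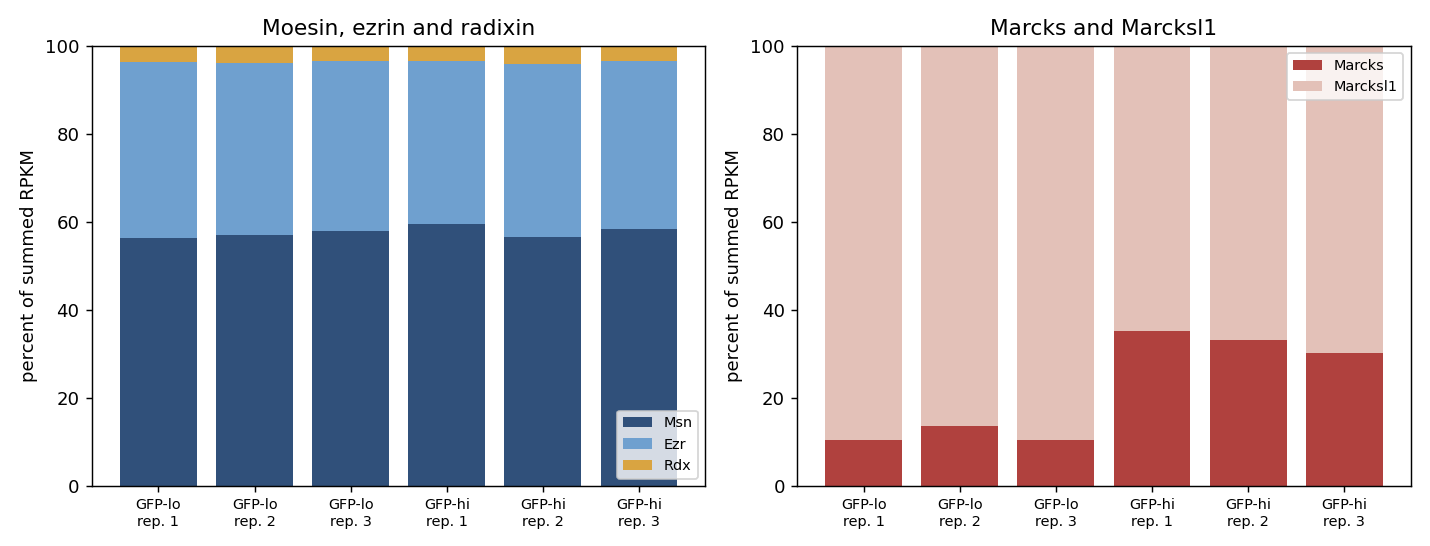
Left, share of moesin, ezrin and radixin transcripts in their summed RPKM, and right, share of Marcks in the sum of Marcks and Marcksl1 (vertical axes in percent, 1 bar per library). The ERM shares are alike in the 6 libraries, whereas the Marcks share is 30.2% to 35.3% in GFP-hi and 10.4% to 13.7% in GFP-lo.

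The ERM coding sequences are alike over their whole length, and the longest run that any pair shares is shown because it bears on the assignment of reads. Ezr and Msn were 73.8% identical over 1727 aligned bases, Msn and Rdx 72.0% over 1728 and Ezr and Rdx 70.0% over 1749. The longest shared runs were 32, 18 and 15 bases, in that order, and the first lies at bases 901 to 932 of both the Ezr and the Msn coding sequence.
Ezr and Msn: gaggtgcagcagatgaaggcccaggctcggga
No pair shared a longer identical run.

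Coro1a (Entrez 12721, chromosome 7, 126699774 to 126704816) had narrow ranges in both populations. It had 333, 349 and 344 RPKM in GFP-hi against 323, 323 and 325 RPKM in GFP-lo. The ranges were separate, but the lowest GFP-hi library exceeded the highest GFP-lo library by a ratio of only 1.03, and the means had a ratio of 1.06. The log2 difference of 0.079 had a standard error of 0.051. With scaling by a trimmed mean of M values it was 0.053.

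Flna and Tln1 had the opposite character, with wide spread and overlapping populations. Flna (Entrez 192176, chromosome X, 74223461 to 74249854) had 147, 102 and 140.2 RPKM in GFP-hi against 149, 131 and 144 RPKM in GFP-lo. Tln1 (Entrez 21894, chromosome 4, 43531513 to 43562583) had 132, 91.1 and 133 RPKM against 126, 110 and 121 RPKM. In both genes replicate 2 was the lowest library of its population. The log2 difference was -0.14 (standard error 0.13) for Flna and -0.02 (0.14) for Tln1. In the 4 libraries with low Hspa1a they were -0.03 and 0.11, and without GFP-hi replicate 2 they were 0.027 and 0.16. That of Tln1 was also above 0, at 0.023, without GFP-lo replicate 1, so the sign of both differences depended on the libraries used.

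Set side by side, 5 of the 10 genes (Marcks, Marcksl1, Vim, Lad1 and Coro1a) had GFP-hi libraries all above the GFP-lo libraries, where 17.1% of all tested genes did, and none had them all below, where 9.84% did (26.9% in either direction). These counts describe a set that was chosen on this difference, and nothing is read from them. The proliferation genes were higher in GFP-hi as well, and their part in the differences was not tested.

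Libraries also differed within populations. Deviations were taken on the log2(RPKM + 1) scale from the mean of each population, a quantity that the choice of genes had not used. Marcks was 0.17 above its mean in GFP-hi replicate 2 and 0.16 above it in GFP-lo replicate 2, and below it in the other 4 libraries. In the same libraries Flna deviated by -0.33 and -0.11, below its means, and Tln1 by -0.36 and -0.11. Lad1 deviated by -0.67 in GFP-hi replicate 2 and by only -0.05 in GFP-lo replicate 2. Ezr (0.015 and -0.043) and Coro1a (0.029 and -0.002) deviated little there, and in opposite directions. Flna and Tln1 had Pearson's r of 0.99 over the 6 deviations, Msn had 0.98 with Flna and Marcks had -0.93 with Msn. Marcks and Hspa1a had an r of 0.99, Tln1 and Hspa1a of -0.91 and Ezr and Hspa1a of -0.22. The transcripts of Flna (8312 bases) and Tln1 (8393 bases) are the longest of the set. In GFP-hi replicate 2 the deviations of all tested genes from the mean of the 6 libraries fell with transcript length. The slope was -0.076 per doubling there and 0.00085 in GFP-lo replicate 2. With the library slope on transcript length removed, the log2 differences between populations were -0.088 for Flna and 0.030 for Tln1. The part of length in the deviations was not tested. The r values describe 6 libraries, rest largely on the replicate 2 libraries and carry no test.

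**Figure D3:**
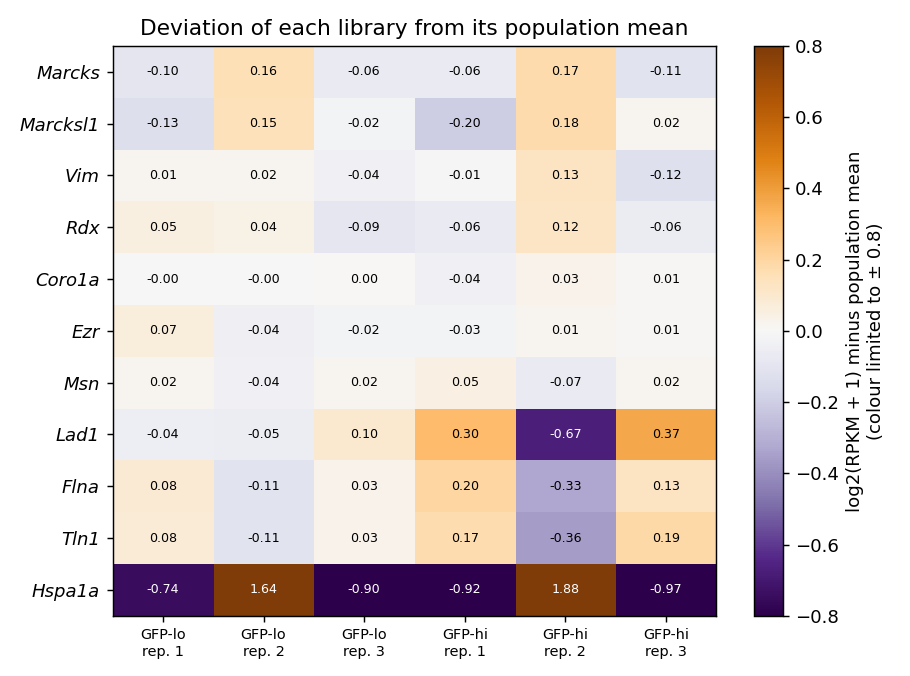
Deviation of each library from its population mean on the log2(RPKM + 1) scale, by gene (rows) and library (columns), with Hspa1a as the mark of the libraries that stood apart. Marcks, Marcksl1, Vim and Rdx lie above their means in both replicate 2 libraries, whereas Msn, Lad1, Flna and Tln1 lie below. In GFP-lo replicate 2 the deviations of Vim (0.024), Rdx (0.039) and Lad1 (-0.053) are small.

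The tested genes most like Marcks over the 6 libraries were Itm2a (r = 0.998), Dpp4 (0.996), Lgals1 (0.995), Tmem106b (0.995) and Cnn3 (0.994). Itm2a, a membrane protein gene, had means of 44.4 and 21.6 RPKM, and Lgals1, the gene of galectin-1, of 59.2 and 28.4 RPKM in GFP-hi and GFP-lo. Cnn3, the gene of the actin-binding calponin 3, had 11.97 and 7.84 RPKM. Dpp4 and Tmem106b differed little, by 0.19 and 0.14 on the log2 scale. These r values hold the separation of the populations, so likeness was also taken from deviations alone. It then named other genes, Srsf7 (0.999), Tex30 (0.998), Dhrs7, Emc6 and Micos10 (0.997 each), whose log2 differences ran from -0.05 to 0.24.

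Upstream sequence was examined for Marcksl1 and Lad1, members that were higher in GFP-hi, and for Ezr, which was not. The windows hold the 250 bases before the RefSeq start (GRCm38.p6, read 5′ to 3′ on the gene's strand), from chr4:129513331-129513580 (plus strand), chr1:135818348-135818597 (plus strand) and chr17:6782781-6783030 (minus strand). Capitals mark a match on either strand to TGANTCA (AP-1), AAAGGTCA (NBRE, the element that Nur77 binds as a monomer), GCGNGGGCG (EGR), TATAAA or the CArG box of serum response factor.
Marcksl1: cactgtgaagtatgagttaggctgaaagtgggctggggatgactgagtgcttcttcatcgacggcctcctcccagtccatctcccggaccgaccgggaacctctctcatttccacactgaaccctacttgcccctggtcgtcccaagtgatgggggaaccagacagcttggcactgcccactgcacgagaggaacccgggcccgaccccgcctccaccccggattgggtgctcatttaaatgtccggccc
Lad1: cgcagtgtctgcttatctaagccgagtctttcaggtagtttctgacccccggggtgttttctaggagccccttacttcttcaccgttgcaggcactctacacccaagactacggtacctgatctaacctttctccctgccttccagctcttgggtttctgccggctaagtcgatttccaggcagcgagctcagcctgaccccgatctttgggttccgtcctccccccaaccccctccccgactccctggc
Ezr: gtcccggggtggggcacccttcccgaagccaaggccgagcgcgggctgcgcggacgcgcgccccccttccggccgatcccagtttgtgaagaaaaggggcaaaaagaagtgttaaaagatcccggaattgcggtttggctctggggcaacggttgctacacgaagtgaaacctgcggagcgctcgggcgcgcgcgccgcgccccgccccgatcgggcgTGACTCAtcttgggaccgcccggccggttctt
No letters are in capitals in the Marcksl1 and Lad1 windows, and Ezr has 1 AP-1 match, TGACTCA, which begins 32 bases before the start. Of 32851 windows of the same length 6.75% held the AP-1 motif, 1.34% NBRE, 4.70% EGR, 12.4% TATAAA and 1.47% the CArG box. The window of Marcksl1 had a GC content of 60.4%, that of Lad1 57.6% and that of Ezr 67.2%, against a median of 52.4%. Windows were used for 9 of the 10 genes, without Marcks. That of Vim lies within an exon of the GENCODE Vim transcript with the longest coding sequence and is not shown. It has 1 match to TATAAA, beginning 32 bases before the RefSeq start. GGGCGG (SP1), not in capitals above, was in 32.7% of all windows and in those of Ezr, Msn and Flna. The Flna window lies inside the gene as placed above. For Coro1a the match was in the window before the gene and not in a further window inside it. Rdx also had a window inside the gene, without a match. A match is a description of the letters and shows no binding.

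Genes that act with these proteins were then taken from 6 lists of 164 entries, of which 138 had values and 122 were tested. Of these, 4 were higher and 1 was lower in GFP-hi (limma, adjusted p under 0.05), which is 4.10%, near the 3.95% of all genes tested. The lists were chosen with earlier results of these data known, and the value of Itgae in particular was known. Over all genes 230 (2.46%) were called higher and 139 (1.49%) lower, a split that became 203 and 184 when libraries were scaled by a trimmed mean of M values.

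Of 21 tested genes around MARCKS (protein kinase C isoforms, calmodulins and enzymes of phosphoinositide metabolism), 1 was higher and 20 did not pass. The exception was Basp1, which encodes a myristoylated membrane protein often grouped with MARCKS. Basp1 had 5.58, 5.05 and 4.75 RPKM in GFP-hi against 3.19, 3.24 and 2.84 RPKM in GFP-lo, with fully separate ranges. Its log2 fold change was 0.58 (standard error 0.075, limma adjusted p = 0.0063), and the call was lost in the 4 libraries with low Hspa1a (0.62, adjusted p = 0.059). The most abundant genes of the list were Prkch, a protein kinase C isoform that diacylglycerol activates, at 81.6 and 73.8 RPKM (limma adjusted p = 0.24), and Calm2, a calmodulin gene, at 75.8 and 74.2 RPKM (adjusted p = 0.82). The list's median log2 fold change was 0.015, against 0.018 over all genes tested. Unadjusted limma p was under 0.05 for 3 higher (14.3%) and 1 lower (4.76%) gene, against 12.9% and 7.30% over all genes tested. In 4 genes (19%) GFP-hi libraries were all above GFP-lo and in 3 (14.3%) all below, against 17.1% and 9.84% of all genes tested.

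Of 23 tested partners and regulators of the ERM proteins none was called in either direction by limma. Their log2 fold changes ran from -0.21 to 0.18, with a median of -0.01. Unadjusted limma p was under 0.05 for 1 higher (4.35%) and 1 lower (4.35%) gene, against 12.9% and 7.30% over all genes tested. In 3 genes (13%) GFP-hi libraries were all above GFP-lo and in 2 (8.70%) all below, against 17.1% and 9.84% of all genes tested. Selplg, the gene of the ERM-bound selectin ligand PSGL-1, had 519 RPKM in GFP-hi against 516 RPKM in GFP-lo (limma adjusted p = 0.96).

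Of 19 tested genes of the talin and integrin linkage 1 was higher. Itgae, which encodes the CD103 integrin chain, had 73.9, 67.9 and 60.7 RPKM in GFP-hi against 31.6, 25.9 and 25.9 RPKM in GFP-lo (log2 fold change 1.25, standard error 0.098, limma adjusted p = 0.00087). The value of Itgae was known when the list was drawn up, so this call is no independent result. Itgb7, whose product pairs with CD103, had 305 and 306 RPKM (adjusted p = 0.98). Rap1b, a small GTPase that acts upstream of talin, had 199.6 and 194 RPKM (adjusted p = 0.80). Over the 19 genes the median was 0.10 on the log2 scale. At an unadjusted limma p under 0.05 there were 6 higher (31.6%) and 1 lower (5.26%), against 12.9% and 7.30% over all genes tested. GFP-hi libraries were all above GFP-lo in 6 genes (31.6%) and all below in 2 (10.5%), against 17.1% and 9.84% of all genes tested.

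Of 15 tested genes of actin crosslinkers and the cortical skeleton 1 was higher, 1 was lower and 13 did not pass. Unadjusted limma p was under 0.05 for 2 higher (13.3%) and 2 lower (13.3%) genes, against 12.9% and 7.30% over all genes tested. In 2 genes (13.3%) GFP-hi libraries were all above GFP-lo and in 2 (13.3%) all below, against 17.1% and 9.84% of all genes tested. Swap70, an actin-binding protein recruited by phosphoinositides, had 3.83, 3.30 and 3.20 RPKM in GFP-hi against 2.04, 1.76 and 1.64 RPKM in GFP-lo. Its log2 fold change was 0.66 (standard error 0.085, limma adjusted p = 0.0063, and 0.068 in the 4 libraries with low Hspa1a). Iqgap2, a scaffold protein of the actin cortex, had 16.2, 15.0 and 16.5 RPKM against 20.2, 19.3 and 19.3 RPKM. Its log2 fold change was -0.29 (standard error 0.057, limma adjusted p = 0.033), and it missed the threshold whenever any 1 library was left out. Lcp1, the gene of L-plastin, had 160.2 and 155 RPKM (adjusted p = 0.75) and Dbnl, an actin-binding adaptor, 81.7 and 84.3 RPKM (adjusted p = 0.71).

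Of 34 tested genes of actin filament turnover 1 was called. Gsn, which encodes the filament-severing and capping protein gelsolin, had 46.2, 48.8 and 47.4 RPKM in GFP-hi against 29.4, 25.6 and 27.0 RPKM in GFP-lo. Its log2 fold change was 0.78 (standard error 0.062, limma adjusted p = 0.00097), and limma adjusted p was between 6.74e-05 and 0.016 in the 19 alternative analyses. The 33 others did not pass. At an unadjusted p under 0.05 there were 12 higher (35.3%) and 0 lower genes, against 12.9% higher and 7.30% lower over all genes tested. Of the 34 genes, 16 (47.1%) had GFP-hi libraries all above GFP-lo and 1 (2.94%) all below, against 17.1% and 9.84% of all genes tested, and the median was 0.11. Actb, the gene of beta-actin, had 536 and 534 RPKM (adjusted p = 0.97), and Tmsb4x, the gene of the actin monomer-binding thymosin beta 4, had 557 and 536 RPKM (adjusted p = 0.78).

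Of 10 tested genes on the list headed intermediate filaments and plakins none was called by limma. At an unadjusted limma p under 0.05 there were 0 in either direction, against 12.9% higher and 7.30% lower over all genes tested. GFP-hi libraries were all above GFP-lo in 0 genes and all below in 1 (10%), against 17.1% and 9.84% of all genes tested. Not every gene on that list belongs to these families. The log2 fold changes ran from -0.18 to 0.18, with a median of -0.05. Lbr, the lamin B receptor of the inner nuclear membrane, had 79.4 and 86.7 RPKM (limma adjusted p = 0.33), and Fam107b had 91.0 and 88.7 RPKM (adjusted p = 0.76). With array quality weights, under which 8.37% of all tested genes were called higher and 5.34% lower, 2 genes around MARCKS were higher and 1 lower, 1 ERM partner was higher and 1 lower, 7 genes of the talin linkage, 3 crosslinkers and 8 genes of filament turnover were higher, and 1 crosslinker was lower.

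**Figure D4:**
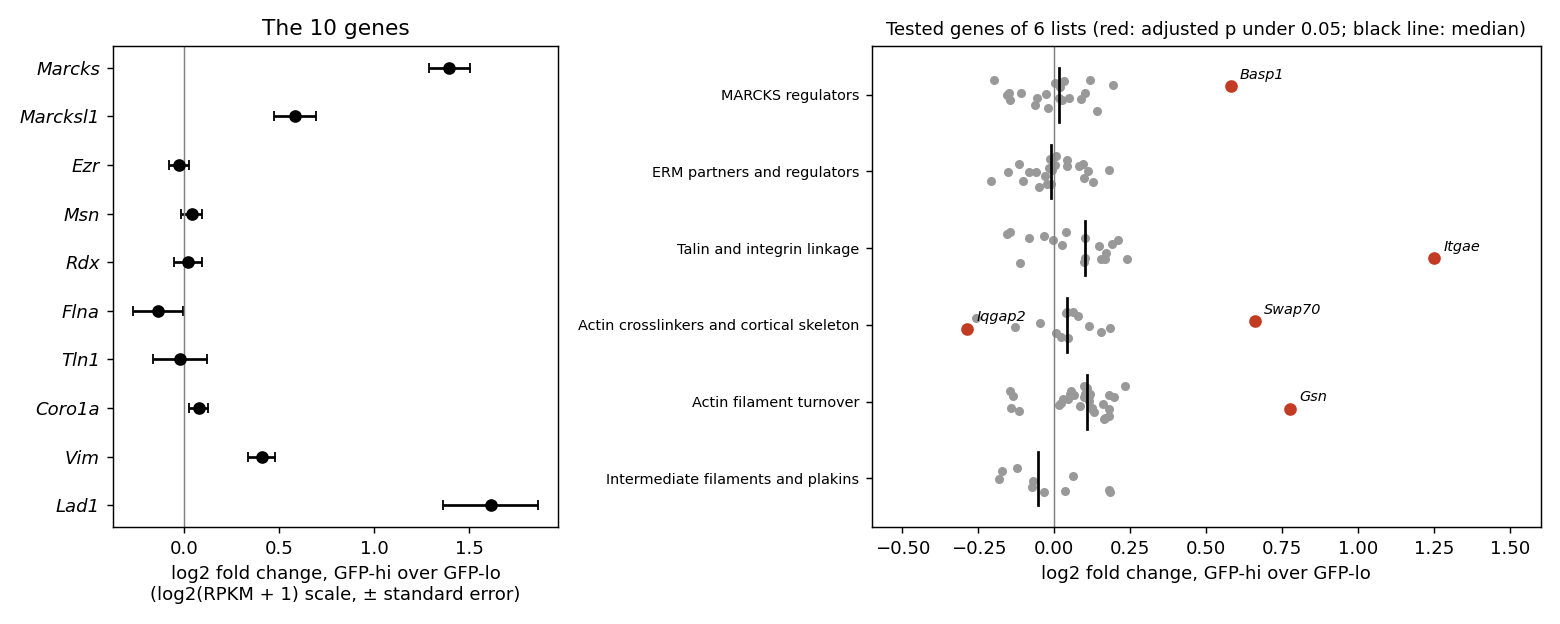
Left, log2 fold change of the 10 genes with its standard error, and right, log2 fold changes of the tested genes of 6 lists (horizontal axes, log2(RPKM + 1) scale, GFP-hi over GFP-lo). Red points are the 5 genes past a limma adjusted p of 0.05 and black lines are list medians, which lie between -0.05 and 0.11.

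Among markers of other cells that could enter the gate, Pecam1 had 27.7 to 32.6 RPKM and Cd79b 10.6 to 14.1 RPKM over the 6 libraries, and the others that had values reached at most 3.09 RPKM. Of 9 myeloid markers only Itgam had values, at 0.16 to 0.366 RPKM in GFP-hi against 0.238 to 0.431 RPKM in GFP-lo. Of 7 B cell markers Ms4a1 and Cd79b had values, with sums of 12.5 to 14.2 RPKM and 10.9 to 11.3 RPKM that were almost all Cd79b, and Ms4a1 reached at most 0.597 RPKM. Of 5 dendritic cell markers 2 had values, with sums of 0.236 to 0.614 and 0.227 to 0.986 RPKM, and none of 4 NK cell markers had any. Of 4 markers of CD4 and regulatory T cells Ctla4 alone had values, at 1.63 to 3.09 and 1.07 to 1.85 RPKM. Of 6 platelet and erythroid markers Hba-a1 alone did, at 0.047 to 1.94 and 0.393 to 1.48 RPKM. Of 6 stromal and endothelial markers 3 had values, summing to 29.7 to 30.8 and 28.0 to 33.0 RPKM, nearly all of it Pecam1. The summed B cell markers were higher in all GFP-hi libraries and their part in the differences was not tested.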

How the data were processed

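RNA from 3 GFP-hi and 3 GFP-lo samples had been amplified with SMART-seq v4 and made into Nextera XT libraries, per the labels' protocols. Per the file headers, the authors deposited RPKM per gene, and STAR and mm10 were named in the submitters' processing notes, while counter, annotation and listing rule were not given in the sources used here. All 6 columns were matched to samples by title.

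Genes with a mean of at least 1 RPKM (9351 of 11162) were tested with limma 3.58.1 (R 4.3.3, lmFit and eBayes with trend, two-sided) on log2(RPKM + 1), without covariate, and p-values were adjusted by Benjamini-Hochberg over all genes tested. The fit was tested on simulated data. Depth was recovered from low values of genes with 1 GENCODE M21 transcript, 86.4% to 90.0% of which lay within 0.1 of a whole read. Such reads include PCR copies. RPKM scaled to the library makes each value relative to all others. Positions and promoter windows are from RefSeq, GRCm38.p6, coding sequences from GENCODE M21, aligned with Biopython 1.88.

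The 10 genes, the lists and the tests were chosen with earlier results of these data known. Named are the 10 genes, from each list up to 6 genes past the threshold and the 2 of highest level, and the 5 genes most like Marcks. One gene that the rule names is not reported here. Hspa1a, genes with near copies of Marcksl1 and marker genes were named outside that rule. Alternatives changed the pseudocount, filter, scaling, variance model and samples. Those on the Hspa1a-low libraries, nasal receptor genes and transcript length were chosen after seeing the data.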

Additional observations from a re-analysis of the deposited data

How the results depend on the processing

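Fold changes are on the log2 scale, and the cause of a shift was not tested unless the alternative itself shows it. Over all genes, the 230 higher and 139 lower calls became 119 and 83 with a minimum mean of 5 RPKM, which left 6412 genes to test. They became 783 and 499 with array quality weights, and 52 and 49 in the 4 libraries with low Hspa1a, which have fewer samples. Leaving out 1 library gave 71 to 187 higher and 59 to 128 lower. The list genes, 4 higher and 1 lower, became 2 higher and 1 lower with the minimum of 5 RPKM. Basp1 (mean 4.11 RPKM) and Swap70 (2.63 RPKM) lay below that minimum and were not tested there. The list calls became 21 higher and 3 lower with array quality weights, and 2 higher and 0 lower in the Hspa1a-low libraries. The lower calls were 2 under quantile normalization, under scaling by a trimmed mean of M values and with the library slope on transcript length removed, and 0 whenever 1 library was left out, which kept 4 higher. The difference of Marcks was 1.80 and 2.40 and that of Lad1 2.12 and 2.97 at pseudocounts of 0.5 and 0.1. With the 4 libraries richer in nasal receptor genes the differences were 1.26 for Marcks, 1.93 for Lad1, 0.43 for Marcksl1 and 0.35 for Vim. Without 1 library Marcks ranged from 1.31 to 1.48, Lad1 from 1.43 to 1.95, Marcksl1 from 0.49 to 0.69 and Vim from 0.34 to 0.47. The share of Marcks in the pair differed by 20.2 to 22.8 percentage points without 1 library. No paired analysis was made because the labels give no replicate numbers, so the numbers used here only name libraries. Both libraries numbered 2 had high Hspa1a, but whether libraries were prepared in pairs was not given and was not tested. Depth limits Lad1 and Marcks most, at 26 to 74 reads in GFP-lo.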

Other observations

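Among genes of the nuclear lamina, Lmnb1, the gene of lamin B1, varied between libraries in a way that was noticed after its values were seen. It had 14.1, 4.21 and 13.5 RPKM in GFP-hi against 5.47, 8.68 and 11.5 RPKM in GFP-lo, with a log2 fold change of 0.18 and a standard error of 0.41 (limma, adjusted p = 0.85). GFP-hi replicate 2, the library in which Flna and Tln1 were also lowest, held the lowest value. Actb also spread within GFP-lo, at 438, 545 and 618 RPKM, against 594, 497 and 516 RPKM in GFP-hi.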
